A study of Salmo salar with 189 samples.

Results

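The peak times of clock genes were compared between a part of the brain, the optic tectum (OT), and the gill of the same Atlantic salmon over 1 day. The comparison took every OT and gill sample of the diel series, 42 of the 189 samples of the study. These were the samples labelled ZT5 to ZT21 in the light dark cycle (LD), together with CT1 and CT5 of the fish whose names start with A, which closed the cycle and carry the label LL. ZT counts hours from lights on, and CT1 and CT5 are the same clock hours on the next morning. Each tissue gave 21 samples from the same 21 fish, 3 at each of 7 time points set 4 h apart. The fish were pre-smolts of about 45 g from the Aquagene commercial strain, and were about 7 months old when the experiment began. They had been reared in constant light and then held for 8 weeks under a short photoperiod. The water was kept at 14 °C in the last weeks before sampling. The sample labels give that photoperiod as 8 h of light and 16 h of dark, and the methods of the study give a shorter light phase. Food was withdrawn 48 h before the first sampling, and the temperature was held constant, since meals and temperature can also set a clock. RNA was measured with a NanoString CodeSet, in which fluorescent barcodes bound to each target are counted without amplification, and the values are called signal. Each tissue had been normalised on its own, so a level in one tissue has no common scale with a level in the other. Apart from a check of tissue on a pair of genes near the lowest values of the table in the gill, only times, amplitudes within a tissue and changes over time in the OT to gill ratio were compared. Of 48 entries in the table, 44 had values in both tissues and 39 of these were transcripts expressed in both, which were all tested.

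The vertebrate clock is a loop of transcription and translation. CLOCK and ARNTL proteins drive the period and cryptochrome genes, whose products feed back on them, while REV-ERB proteins (Nr1d1, Nr1d2) repress and ROR proteins activate Arntl1, and the PAR-bZIP factors Dbp, Tef and Hlf carry the rhythm to other genes. The OT receives visual input and the gill serves gas exchange and the balance of ions and water. In bony fishes many tissues hold clocks of their own that can respond to light, so whether the same genes peak at the same hours in both tissues is the question that this pairing of samples addresses. Salmonids carry extra gene copies from a genome duplication of their own (Ss4R), and each copy is named here by its chromosome, as in Per1-Ch4.

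Each copy had its own target in the CodeSet, 100 bases long, and the stretches below are those around the longest run shared by the targets of a pair. They are shown because the comparison turns on these copies, and the capitals mark the longest run of bases that a target shared with the target of its partner.
Per1-Ch4: gtcagcttggacCAGGTCgctaaagatgtc
Per1-Ch11: aatcctgcattaCAGGTCaatcctgctttg
Tef-Ch3: gccagagaaGTCAGAGAAAGctggtggaga
Tef-Ch6: ttgatattgGTCAGAGAAAGggcgagatgg
Arntl1-Ch10: ctgtgggacttATTGGAGCcgagacctcca
Arntl1-Ch16: ctgtaggactcATTGGAGCaggacccctca
The longest shared run was 6 bases for the Per1 pair, 11 for the Tef pair and 8 for the Arntl1 pair. Over all 741 pairs among the 39 targets the longest was 12 bases. These runs compare targets only, not a target with the whole transcript of its partner. Targets of a pair can lie in different parts of their transcripts, so the runs do not measure how alike the copies are. The 30 bases printed for Per1-Ch4 lie at positions 79 to 108 of its transcript and those for Per1-Ch11 at positions 3741 to 3770.

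Total signal per sample ranged from 24491 to 47547 in the OT and from 4785 to 9908 in the gill. The CodeSet holds no marker of a cell type. Its nearest check of tissue is the Rorb pair, whose gene is known from nerve tissue and retina in mammals, and Rorb-Ch20 had a signal of 586 to 1399.9 in the OT and of 1.03 to 5.11 in the gill. In bulk tissue, fewer cells that express a gene and less RNA per cell cannot be told apart. The mean of all 39 transcripts was itself not level over the day. In the OT it was 0.26 ± 0.20 (SD, n = 3) above the tissue mean at ZT17 on the log2 scale and 0.19 ± 0.17 below it at CT5, and a 24 h fit to it had an amplitude of 0.16 ± 0.04 (SE) with a peak at 16.1 h (permutation p = 0.00689). In the gill it was 0.22 ± 0.37 below the tissue mean at ZT17. That dip came from 1 sample, the gill of fish A20, the third fish at ZT17, in which the 39 transcripts averaged 0.64 below the tissue mean and the total signal was 4785 against 7727 to 9908 in the other 20 gill samples. Without this fish the amplitude in the gill fell from 0.06 to 0.01. Results that rest on this sample are therefore given with and without fish A20, and also with each sample scaled by the geometric mean of its 39 transcripts. All of these are clock genes and the table holds no reference gene, so scaling also takes out whatever rhythm the transcripts had in common.

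**Figure D1:**
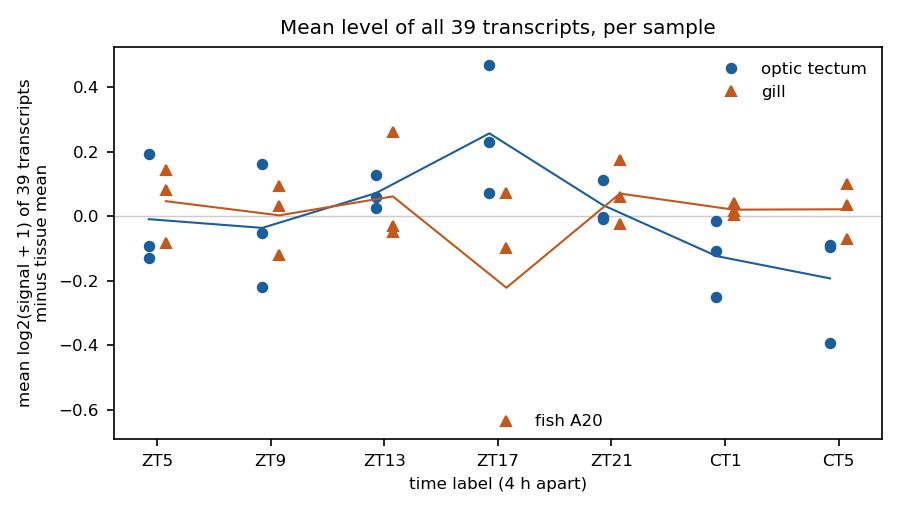
Mean log2(signal + 1) of the 39 transcripts in each sample, minus the mean of its tissue (log2 units), against time label; each point is 1 fish and lines join time point means of 3 fish. The OT was highest at ZT17, and the gill sample of fish A20 lay at -0.64, apart from the other 20.

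Rhythms were more often called in the OT than in the gill. By JTK_CYCLE, a rank test against cosine curves with the adjusted p taken over 11 curves, the OT had 18 rhythmic transcripts out of 39 (46.2%) and the gill 5 (12.8%), at a threshold of 0.05. Those in the gill included Arntl1-Ch10, Per1-Ch4, Clock-Ch10 and Rora-Ch16, and 2 of the 5, Arntl1-Ch10 and Per1-Ch4, were also called in the OT. After scaling, Per1-Ch11 and Rora-Ch16 were called in both tissues as well. The calls in the gill rest on few fish. Without fish A20 the gill had 4 calls, and without the first, the second or the third fish of each time point 1, 0 and 1 were called. In the OT the same omissions left 13, 14 and 11 calls. The spread around the 24 h curve was wider in the gill, with a median SD over transcripts of 0.32 against 0.23 on the log2 scale. A peak time from a 24 h cosine fit was called bounded where its 95% interval spanned at most 12 h, which held for 24 transcripts in the OT (median width 2.85 h) and for 13 in the gill (median width 7.0 h). For the remaining 15 in the OT and 26 in the gill the interval covered the whole day, so their fitted peak times were not resolved. Both peaks were bounded for 6 transcripts, Arntl1-Ch10, Per1-Ch4, Per1-Ch11, Tef-Ch3, Tef-Ch6 and CKId-Ch28. The peak time comparison below rests mainly on these.

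Arntl1-Ch10 encodes a copy of ARNTL (BMAL1), the partner of CLOCK, and in both tissues it was higher at ZT5 and ZT9 than at ZT21. In the OT the 3 fish had signals of 511, 567 and 465 at ZT5, of 623, 418 and 497 at ZT9, of 409, 394 and 438 at ZT13 and of 395, 344 and 266 at ZT17. At ZT21 they fell to 306, 291 and 275, and they were 325, 348 and 292 at CT1 and 448, 402 and 482 at CT5, so that no fish at ZT21 overlapped with any at ZT5 or ZT9. In the gill the fish had 122, 138 and 136 at ZT5, 145, 128 and 194 at ZT9 and 128, 109 and 96.2 at ZT13. The gill values at ZT17 were 80.5, 116 and, in fish A20, 61.5, those at ZT21 were 103, 102 and 94.0, and those at CT1 and CT5 lay between 93.7 and 111. Here ZT9 did not overlap with ZT21, and the morning rise from CT1 to CT5 seen in the OT was not larger than the spread between fish. The peak was at 8.46 h in the OT (95% interval 7.35 to 9.45 h) and at 7.84 h in the gill (5.40 to 9.95 h). The gill peak was thus 0.62 h earlier with an interval of the difference from -3.10 to 1.65 h (F test, n = 21 per tissue, adjusted p = 0.742 over 39 transcripts). The sign of this small difference was not stable, since it was -0.16 h without fish A20 and 1.13 h after scaling. Of the other activators, Arntl1-Ch16, the Ss4R partner, peaked at 12.2 h in the OT, and Clock-Ch10 peaked at 12.2 h in the gill with an unbounded peak in the OT. All 6 activators were measured in both tissues. JTK_CYCLE called 2 of them in each tissue (Arntl1-Ch10 and Arntl1-Ch26 in the OT, Arntl1-Ch10 and Clock-Ch10 in the gill), and none passed the test for a difference of peak time. The shares called over all 39 transcripts were 46.2% in the OT and 12.8% in the gill.

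The Per1 pair encodes period proteins of the negative limb of the loop, and both copies were highest at night. In the OT, Per1-Ch4 had signals of 441, 513 and 380 at ZT5, of 709, 494 and 592 at ZT9 and of 918, 1004 and 921 at ZT13. It reached 1550.2, 1375 and 1109.8 at ZT17, returned to 968, 856 and 979 at ZT21 and to 507, 569 and 536 at CT1, and was 400.4, 358 and 419 at CT5. Every fish at ZT17 was above every fish at any other time point, and the highest time point mean was 3.43 times the lowest. In the gill, Per1-Ch4 had 105, 105 and 125 at ZT5, 105, 109 and 119 at ZT9, 156, 146 and 155 at ZT13 and 163, 145 and, in fish A20, 103 at ZT17. The gill fish at ZT21 had 195, 134 and 153, those at CT1 134, 121 and 131, and those at CT5 107, 72.6 and 106. Gill signals at ZT13 and ZT21 were above all of those at ZT5, ZT9 and CT5, and the range of time point means was 1.69-fold. Per1-Ch4 peaked at 16.8 h in the OT (16.25 to 17.30 h) and at 18.1 h in the gill (15.75 to 20.25 h), a difference of 1.29 h with an interval from -1.0 to 3.45 h (F test, n = 21 per tissue, adjusted p = 0.536). The difference was 1.07 h without fish A20 and 0.86 h after scaling.

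Per1-Ch11 followed the same course in the OT, with 1636, 1283 and 1106 at ZT17 against 401, 319 and 477 at CT5, which did not overlap. In the gill its highest time point mean came at ZT21, with 174, 151 and 165, and its lowest at ZT9, with 116, 126 and 61.7. These groups did not overlap either. Both contrasts set the highest time point against the lowest, picked after the values were seen, so the lack of overlap is not a test. JTK_CYCLE did not call Per1-Ch11 in the gill. The gill peak at 22.2 h (17.5 to 26.45 h, which runs past midnight of the ZT scale) was 4.74 h later than the OT peak at 17.4 h, with an interval from 0.40 to 8.70 h. By the F test (n = 21 per tissue) the unadjusted p was 0.0423, and it did not pass adjustment over the 39 transcripts (adjusted p = 0.349). With tissue labels permuted within fish the adjusted permutation p was 0.00273. That permutation exchanges whole curves, and the amplitudes were unequal (0.81 in the OT, 0.24 in the gill). It therefore cannot decide on peak time alone. The difference was 3.58 h without fish A20 (0.70 to 6.30 h), 3.49 h after scaling (1.15 to 5.6 h) and 1.97 h without the third fish of each time point (-0.50 to 4.20 h). Within the gill the copies peaked 4.11 h apart, and within the OT 0.65 h apart. Of the 7 period entries 5 were tested. On the values as deposited JTK_CYCLE called 4 of these in the OT (both Per1 copies, Per2-Ch14 and Per3-Ch22) and 1 in the gill. The shares over all transcripts were 46.2% and 12.8%. None passed for peak time by the F test. Per2-Ch14, a period gene that responds to light in zebrafish, had 192, 228 and 238 in the OT at CT5 and 262, 167 and 153 at ZT9, against 77.3, 74.6 and 68.8 at CT1, with a fitted peak at 8.65 h, while its gill peak was unbounded. That gill peak was bounded without fish A20, at 12.1 h, and after scaling, at 11.1 h. The differences from the OT were then 3.37 h (-0.60 to 7.55 h) and 3.14 h (-0.65 to 7.00 h).

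Tef-Ch3 and Tef-Ch6 encode copies of the PAR-bZIP factor TEF, which binds D-box elements. Both were highest late in the night, and the fitted peak was later in the gill. In the OT, Tef-Ch6 had 2339, 1904 and 2264 at ZT17 and 2169, 1913 and 2143 at ZT21, against 1255, 1113 and 993 at ZT9. In the gill it had 512, 424 and, in fish A20, 335 at ZT17, then 807, 661 and 897 at ZT21 and 525, 453 and 279 at ZT9. At ZT17 the OT was thus at its highest time point mean, whereas every gill fish at ZT17 was below every gill fish at ZT21. The peaks of Tef-Ch6 were at 19.7 h in the OT (18.4 to 20.9 h) and 23.6 h in the gill (20.45 to 26.95 h), a difference of 3.91 h with an interval from 0.75 to 7.25 h (F test, n = 21 per tissue, unadjusted p = 0.0256, adjusted p = 0.349). For Tef-Ch3 they were at 20.0 h and 22.9 h, a difference of 2.82 h with an interval from -0.65 to 6.25 h (n = 21 per tissue, adjusted p = 0.356). Scaling brought these differences to 2.04 h and 1.06 h, and leaving out fish A20 to 2.97 h (-0.15 to 6.05 h) and 2.06 h. The spread between fish was wide at the closing time point. Tef-Ch3 at CT5 had 1815, 830.5 and 1409.8 in the OT and 698, 293 and 928 in the gill, and fish A30, the second of these, was the lowest in both tissues. The OT sample of this fish also had the lowest total signal of its tissue (24491). JTK_CYCLE called 4 of the 8 PAR-bZIP transcripts in the OT (Tef-Ch3, Tef-Ch6, Dbp-Ch14 and Dbp-Ch5-1) and 0 in the gill, where the shares over all transcripts were 46.2% and 12.8%. Hlf-Ch1 had one of the largest amplitudes in the gill (0.36 on the log2 scale) but with an unbounded peak. Its gill signals alternated up to ZT21, at 166, 266 and 325 at ZT9, 86.7, 105 and 65.8 at ZT13, 186, 120.3 and 162 at ZT17 and 75.6, 60.3 and 51.1 at ZT21. The alternation did not go on, with 104, 210 and 237 at CT1 and 227, 239 and 69.0 at CT5. At ZT5, the same clock hour as CT5, they were 79.9, 87.3 and 79.3.

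CKId-Ch28 encodes casein kinase 1 delta, which phosphorylates period proteins, and it was the sixth transcript with both peaks bounded. Its changes were small in both tissues, with an amplitude of 0.16 ± 0.05 (SE) in the OT and 0.19 ± 0.08 in the gill on the log2 scale. In the OT it had 1481, 1327 and 1206 at ZT17 and 1003, 815 and 963 at CT5, which did not overlap. In the gill it had 649, 670.4 and 885 at ZT9 and 677, 496 and, in fish A20, 339 at ZT17, which overlapped. In each tissue these were the time points with the highest and lowest means, picked after the values were seen. The fitted peaks at 17.2 h in the OT and 6.39 h in the gill were nearly opposite, with the gill 10.8 h earlier (-15.35 to -6.50 h, F test, n = 21 per tissue, unadjusted p = 0.0155, adjusted p = 0.349). This result was not stable to leaving out fish A20 or to scaling. Without fish A20 the interval of the difference covered the whole day (F test, n = 20 per tissue, p = 0.0517), and the gill peak was unbounded. After scaling the interval covered the whole day too (F test, n = 21 per tissue, p = 0.058). Here it was the OT peak that was unbounded, its amplitude down from 0.16 to 0.04, and the gill peak stayed bounded. The difference of -10.8 h became -9.83 h without fish A20 and 8.51 h after scaling. The highest OT value and the lowest gill value of CKId-Ch28 fell at ZT17, where the mean of all 39 transcripts was also highest in the OT and lowest in the gill, and the part of that shift in the result was not tested. JTK_CYCLE called 1 of the 3 casein kinase 1 transcripts in the OT and 0 in the gill, against shares over all transcripts of 46.2% and 12.8%.

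**Figure D2:**
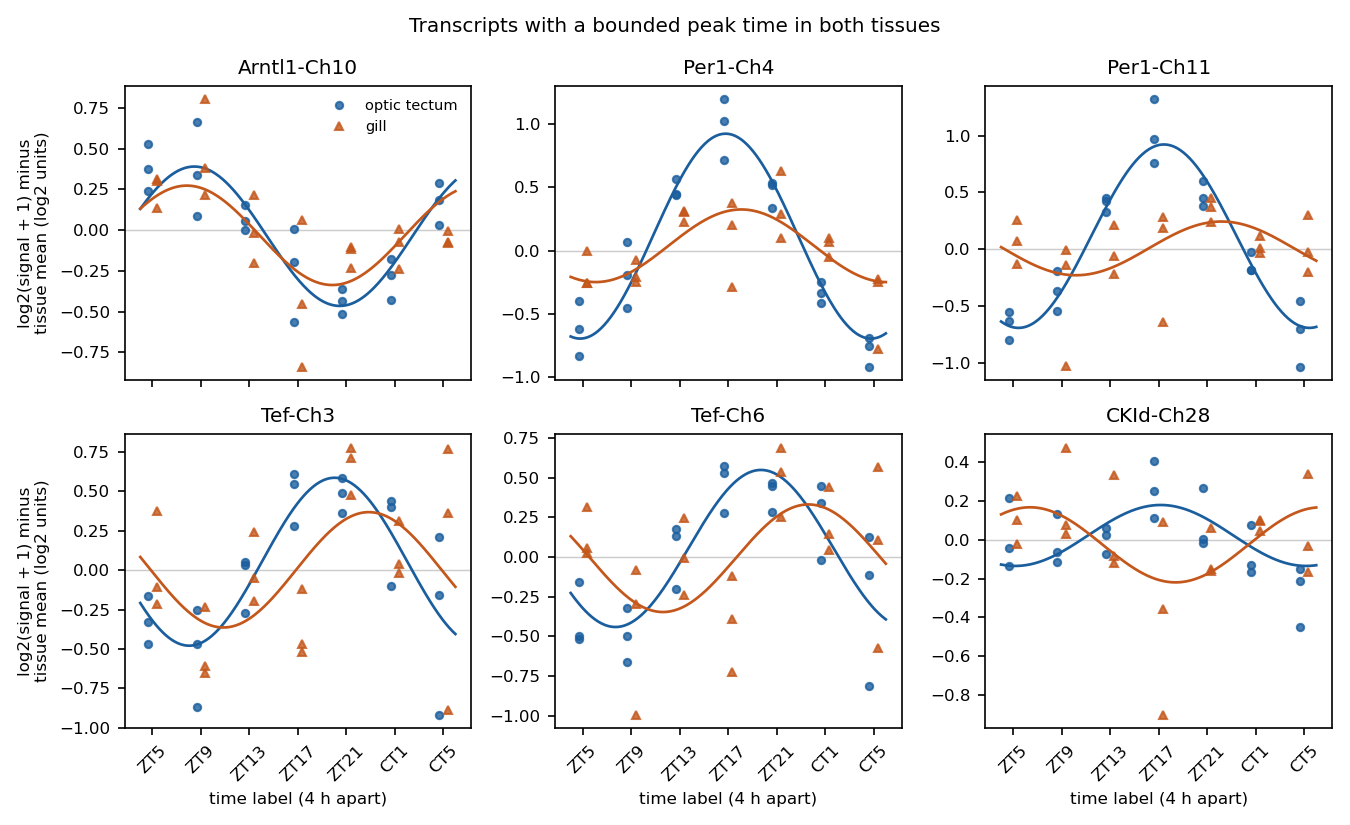
Log2(signal + 1) minus the tissue mean (log2 units) against time label for the 6 transcripts with a peak time bounded in both tissues; points are single fish (3 at each time point and tissue) and curves are the 24 h fits, with the OT in blue circles and the gill in orange triangles. The curves nearly coincide in time for Arntl1-Ch10 and Per1-Ch4, the gill curve is later for Per1-Ch11 and both Tef copies by 2.82 to 4.74 h, and the curves of CKId-Ch28 are opposed.

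Over all 39 transcripts, whether a difference of peak time passed the threshold depended on the test. The F test of 1 shared peak time against separate peak times (n = 21 per tissue) called 0 transcripts after Benjamini-Hochberg adjustment (0% of those tested, smallest adjusted p = 0.349), and 4 had an unadjusted p under 0.05 (10.3%). These were CKId-Ch28, Tef-Ch6, Per1-Ch11 and Cry2-Ch10, a cryptochrome copy whose gill peak was unbounded on the values as deposited. For Cry2-Ch10 the difference was -10.5 h (-16.15 to -5.60 h) as deposited. It was -8.48 h (-12.65 to -4.30 h) without fish A20 and -11.0 h (-15.35 to -6.40 h) after scaling. In both of these settings its gill peak was bounded, and its adjusted p by the F test was 0.407 and 0.357. With tissue labels permuted within fish, which keeps the pairing, the absolute difference passed adjustment for 7 transcripts, among them Per1-Ch11 (adjusted permutation p = 0.00273), Nr1d2-Ch27 (0.00273), Ciart-Ch14 (0.00351) and Dbp-Ch5-1 (0.0106), and within time points for 5. This permutation exchanges whole curves, so unequal amplitudes enter it too, and of the 7 only Per1-Ch11 had a bounded peak in both tissues. Without fish A20 the unadjusted calls of the F test fell to 2, Per1-Ch11 and Cry2-Ch10. After scaling they numbered 4, Per1-Ch11, Clock-Ch10, Cry2-Ch26 and Cry2-Ch10. The median absolute difference of fitted peak times was 5.6 h, and the peaks of 15 transcripts lay within 4 h of each other. Both figures cover all 39 transcripts, of which only 6 had both peaks bounded. Fitted times that were not resolved enter them, so they do not give a typical lag between the tissues. The median was 3.76 h without fish A20 and 2.69 h after scaling, when 28 transcripts lay within 4 h and both peaks were bounded for 12. In the OT 18 of the 24 bounded peaks fell between 12 and 24 h, from Per2-Ch3 at 12.0 h to Per3-Ch22 at 22.8 h. In the gill 6 of 13 did so, and 7 fell between 0 and 12 h. These counts hold for the values as deposited, in which the mean of the 39 OT transcripts itself peaked at 16.1 h. Scaling moved the OT peaks of Per2-Ch3 to 9.94 h, Arntl1-Ch16 to 10.2 h and Clock-Ch23 to 10.4 h. Others, such as Per1-Ch4 at 16.9 h, stayed after 12 h. The part of the shared OT peak in these counts was not tested. The 7 transcripts with a peak bounded in the gill and not in the OT included Rora-Ch16 at 4.43 h and Rora-Ch10 at 6.16 h, copies of an activator of Arntl1. After scaling Rora-Ch16 was bounded in the OT too, at 3.43 h, against 4.39 h in the gill. Without fish A20 the gill amplitude of Rora-Ch10 fell from 0.33 to 0.18, with its gill peak still bounded. Of 5 tested REV-ERB transcripts JTK_CYCLE called 3 in the OT (Nr1d1-Ch6, Nr1d2-Ch14 and Nr1d2-Ch27) and 0 in the gill, and of 7 cryptochromes 3 in the OT (Cry1-Ch16, Cry2-Ch10 and Cry2-Ch26) and 0 in the gill. Over all transcripts the shares were 46.2% and 12.8%.

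**Figure D3:**
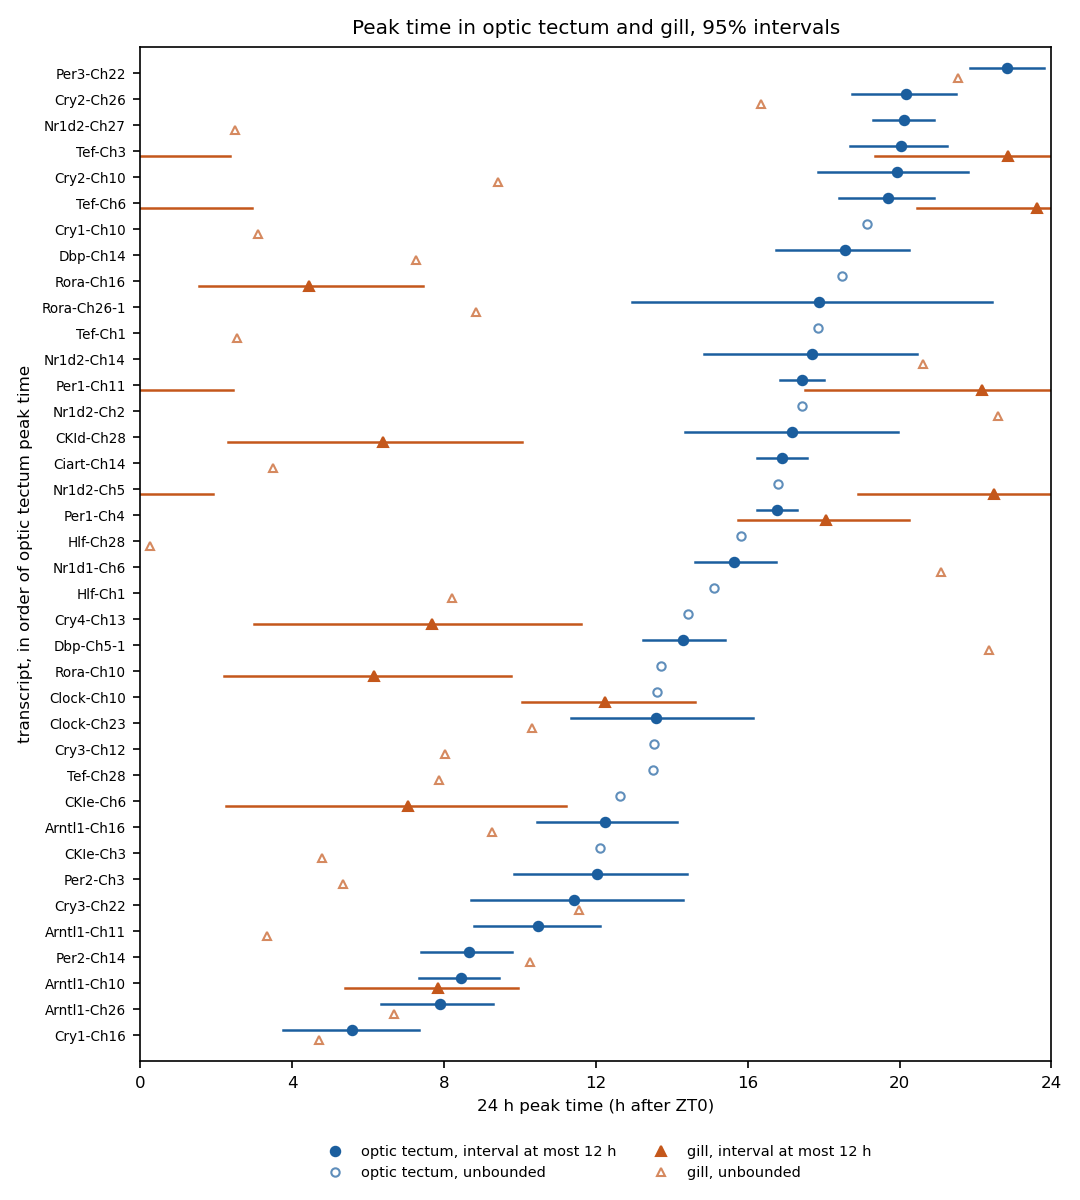
Peak time of the 24 h fit (h after ZT0) for 38 transcripts in the OT (blue circles) and the gill (orange triangles), in order of the OT peak; filled symbols with bars are peaks whose 95% interval spans at most 12 h, with bars continuing from 24 to 0 h, and open symbols are unbounded. There are 24 filled symbols in the OT and 12 in the gill, and 6 transcripts have both.

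The 24 h curves as a whole, which take amplitude and time together, did differ. A two-sided permutation test, which exchanged tissue labels among the samples of a time point in 100000 resamples, called 9 of 39 transcripts after Benjamini-Hochberg adjustment (23.1%). They were Ciart-Ch14, Per1-Ch11, Nr1d2-Ch27, Per1-Ch4, Cry2-Ch10, Dbp-Ch5-1, Per3-Ch22, CKId-Ch28 and Dbp-Ch14. All but CKId-Ch28 had the larger amplitude in the OT. Because the samples came in pairs from the same fish, labels were also permuted within fish, and this block called 14 transcripts, with all 9 among them. Ciart-Ch14, whose mouse counterpart represses CLOCK and ARNTL, showed the contrast most simply. In the OT it had 735, 597 and 509 at ZT17 against 227, 266 and 196 at ZT5. In the gill it had 87.0, 71.4 and, in fish A20, 40.0 at ZT17 against 83.7, 75.0 and 89.9 at ZT5, and these overlapped. Its amplitude was 0.70 ± 0.05 (SE) in the OT and 0.05 in the gill (adjusted permutation p = 0.000195). Within fish, the log2 ratio of OT to gill for Ciart-Ch14 stood 1.17 ± 0.34 (SD, n = 3) above its daily mean at ZT17 and 0.62 ± 0.35 below it at ZT5, a 3.47-fold change. Here and below, a change in ratio runs between the time points where that transcript's ratio was lowest and highest, picked after the values were seen. For Per1-Ch11 the ratio changed 3.56-fold from CT5 to ZT17, for Per1-Ch4 2.50-fold from ZT5 to ZT17 and for Nr1d2-Ch27, a REV-ERB repressor with 962, 789 and 721 at ZT17 and 520, 421 and 464 at ZT9 in the OT, 1.95-fold from CT5 to ZT17. Dbp-Ch5-1 differed in having its ratio highest at ZT13, 0.78 ± 0.53 above the mean, and lowest at CT1. The ratio was highest at ZT17 for 27 of the 39 transcripts and still for 26 without fish A20, and after scaling for 8. The same 9 transcripts were all called again after scaling, among 16 in all, and all 9 were called without fish A20, among 10.

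**Figure D4:**
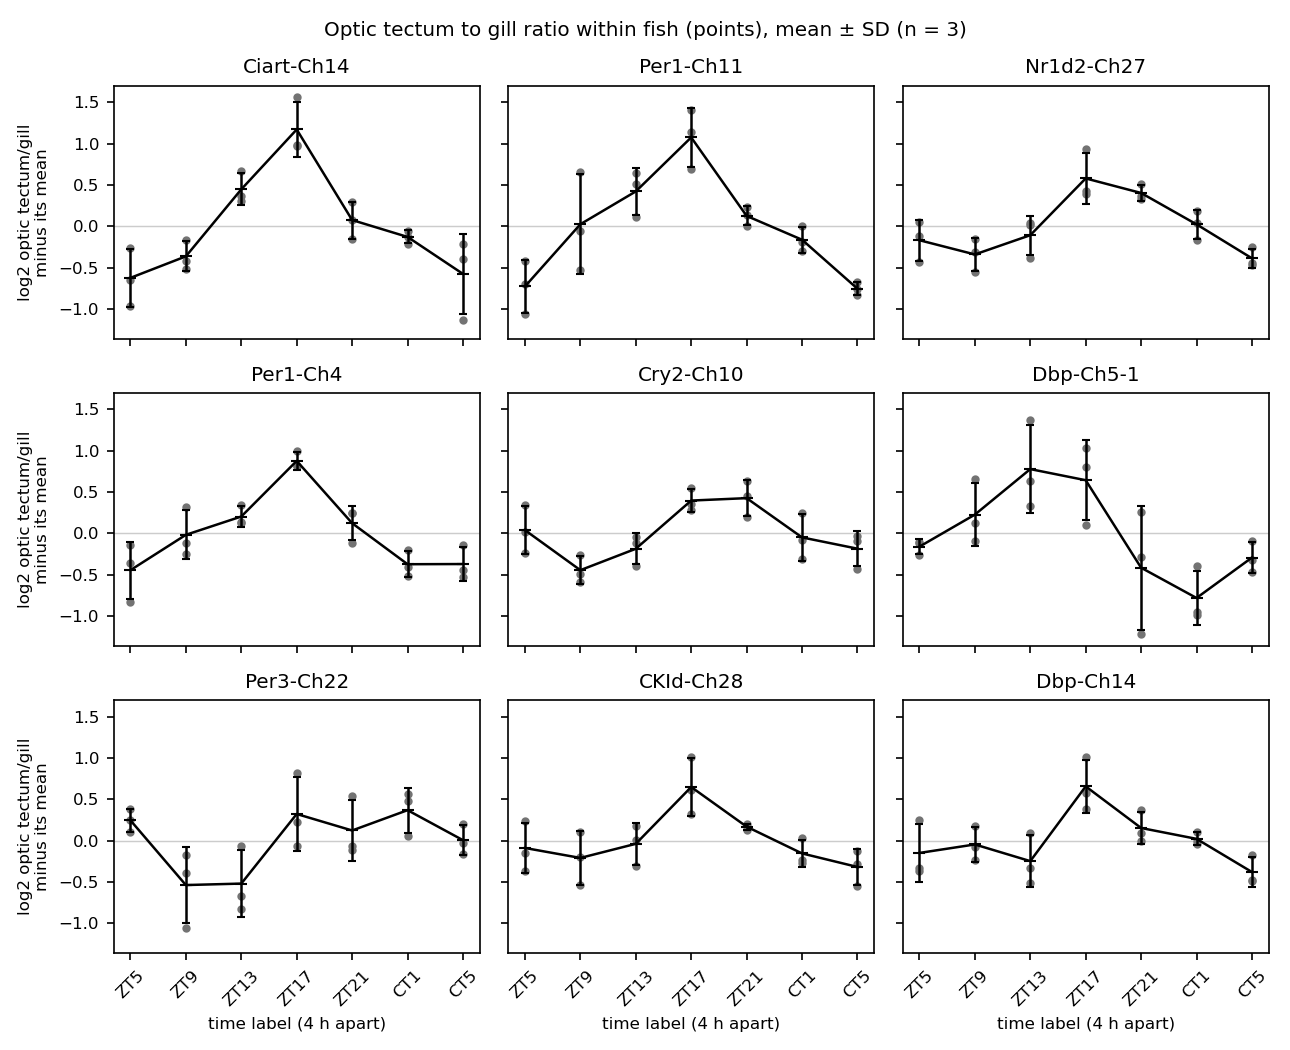
Log2 ratio of OT to gill signal in the same fish, minus the mean of that ratio for the transcript (log2 units), against time label for the 9 transcripts whose curves differed; points are fish and lines with bars are mean ± SD (n = 3). The ratio of Ciart-Ch14 is 1.17 above its mean at ZT17, and that of Dbp-Ch5-1 is highest at ZT13.

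The shape of the day was then compared without a cosine, as the correlation of the 7 time point means of OT and gill on the log2 scale. The first and last time points share a clock hour, and 3 fish stand behind each mean. The permutation test re-pairs the means, so the spread between fish does not enter it. After Benjamini-Hochberg adjustment 0 of 39 correlations passed the exact permutation test (0%, smallest adjusted p = 0.379), and 4 had an unadjusted p under 0.05 (10.3%). The highest were those of Arntl1-Ch10 (Pearson's r = 0.81, exact permutation p = 0.0218, Spearman's rho = 0.82), Per1-Ch4 (r = 0.80, exact permutation p = 0.0375, rho = 0.75) and Clock-Ch10 (r = 0.79, exact permutation p = 0.0151, rho = 0.79). Leaving out the 2 time points farthest from the OT median gave 0.94, 0.91 and 0.94, so these did not rest on those 2 times. Time points extreme in the gill were not left out on that ground. The lowest were those of Cry2-Ch10 (r = -0.78, exact permutation p = 0.0389, rho = -0.82), CKId-Ch28 (r = -0.70) and CKIe-Ch3 (r = -0.65), and leaving out the 2 time points farthest from the OT median brought Cry2-Ch10 to -0.35. Without fish A20 these were -0.38, -0.62 and -0.39, and Cry2-Ch10 was no longer the lowest. In Cry2-Ch10 the OT had 926, 848 and 937 at ZT9 and 1205, 1247 and 1509 at ZT21. The gill had 323, 348 and 413 at ZT9 and 307, 266 and 284 at ZT21. Between these time points the tissues moved in opposite directions, and the fish did not overlap in either. ZT9 and ZT21 had the highest and lowest gill means, picked after the values were seen, so the lack of overlap is not a test. JTK_CYCLE did not call Cry2-Ch10 in the gill. The median r over all 39 was -0.04, with 17 above 0 and 22 below. By group the median was 0.67 for the 6 activators and 0.42 for the 5 periods, and it was -0.01 for REV-ERB, -0.13 for cryptochromes, -0.19 for ROR, -0.22 for PAR-bZIP and -0.65 for casein kinase 1. After scaling these medians were 0.55, 0.50, 0.49, 0.40, 0.46, 0.50 and -0.02 in the same order, so that only casein kinase 1 stayed below 0 and the other groups lay close together. The overall median moved as well. It was 0.20 without fish A20, with 26 of 39 above 0, and 0.46 after scaling, with 32 above 0. After scaling Per1-Ch4 stood at 0.94 and Arntl1-Ch10 at 0.78, Cry2-Ch10 stayed at -0.73, Clock-Ch10 stood at 0.06, CKId-Ch28 stood at -0.02 and Rora-Ch16 went from -0.17 to 0.80.

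**Figure D5:**
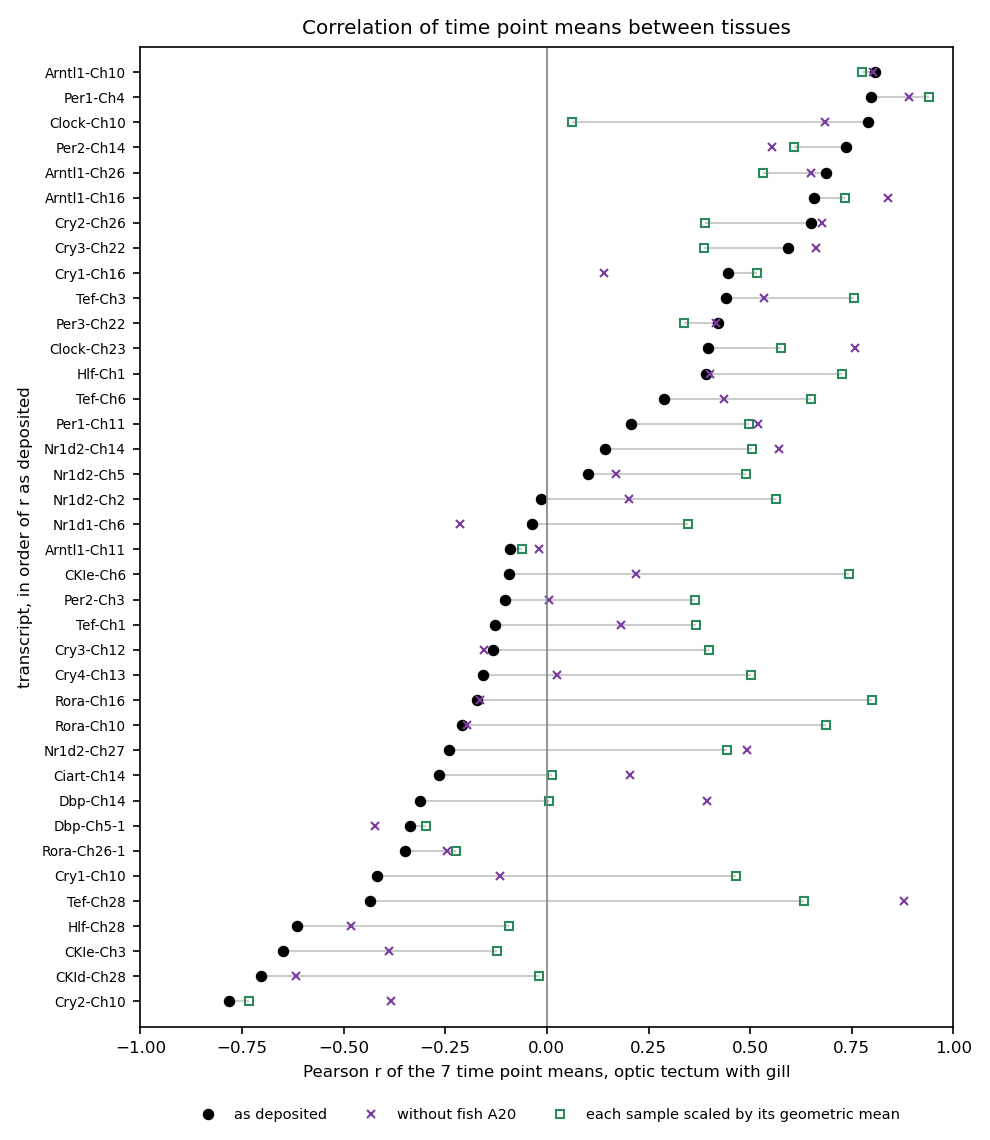
Pearson's r between the 7 OT and 7 gill time point means for 38 transcripts, in order of the value as deposited (black), with the value without fish A20 (crosses) and after scaling each sample (open squares). Most squares lie to the right of the black points, with a median over all 39 tested of 0.46 against -0.04, while Arntl1-Ch10 and Per1-Ch4 lie between 0.78 and 0.94 under all 3 and Cry2-Ch10 moves from -0.78 to -0.38 without fish A20 and to -0.73 after scaling.

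Other fish sampled in constant light (LL) and constant darkness (DD) gave the same comparison without a light cycle, with 18 OT and 18 gill samples in each from CT9 to CT29. All 18 fish were shared by the tissues in LL and 17 were shared in DD. No difference of peak time passed adjustment in either (F test, n = 18 per tissue, 0 of 39 in both, smallest adjusted p = 0.296 in LL and 0.186 in DD), and 6 and 7 transcripts had an unadjusted p under 0.05. Arntl1-Ch10 peaked at 7.13 h in the OT and 8.11 h in the gill in LL, a difference of 0.98 h (-2.65 to 4.60 h). In DD it peaked at 7.15 h in the OT, and its gill peak was unbounded. Per1-Ch4 peaked at 16.4 h in the OT in LL, with an unbounded gill peak fitted at 18.7 h. In DD, Per1-Ch4 peaked at 14.0 h in the OT and at 5.08 h in the gill, 8.94 h earlier (-12.00 to -5.90 h, F test, n = 18 per tissue, unadjusted p = 0.0063, adjusted p = 0.186). Whether the tissue difference of Per1-Ch4 changed between LD and DD was not tested. For Tef-Ch3 and Tef-Ch6 no peak was bounded in either tissue in LL or DD. Nr1d2-Ch27, whose gill peak was unbounded in the diel series, had peaks bounded in both tissues in both constant conditions. In LL it peaked at 20.3 h in the OT and 3.60 h in the gill. The difference was 7.30 h (2.55 to 12.05 h, F test, n = 18 per tissue, adjusted p = 0.296). In DD it peaked at 16.2 h in the OT and 6.55 h in the gill. By the short way round the clock the difference was -9.69 h (-13.9 to -5.5 h, F test, n = 18 per tissue, adjusted p = 0.186). Both intervals run past the 12 h point, where earlier and later meet, so the change of sign does not show a change of direction.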

How the data were processed

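The deposited signal is the number of NanoString barcodes after the authors scaled it to spike-in controls in nSolver, and a background subtraction is not given in the sources used here. Raw counts are not used. Transcripts that the study lists as not expressed in the OT or gill were left out. The members, gene lists and tests were chosen with earlier results of these data known. Signal was transformed as log2(signal + 1), and 24 h cosines were fitted in Python 3.11.15 with NumPy 2.4.6 and SciPy 1.17.1, checked on simulated data. JTK_CYCLE (periods of 20 and 24 h, 11 curves, Bonferroni over curves) was rewritten in Python. Peak times were compared by an F test weighted by the residual variance of each tissue, with profile intervals on a 0.05 h grid. Curves were compared by permuting tissue labels, and correlations over all 5040 pairings of the time points. Adjustment was by Benjamini-Hochberg over 39 transcripts, of which 1 is not reported here by name and is left out of the plots. The named genes were those called rhythmic in both tissues, past the peak time threshold, or bounded in both, the 5 largest amplitudes per tissue, the 3 highest and 3 lowest correlations, and Ss4R partners. Others, such as Nr1d2-Ch27, were named after their values were seen. The labels name the same fish in both tissues, which pairs the samples. The F test and its intervals of the difference treated the tissues as independent and left this pairing out. Differences between a fish and the mean of its group correlated across tissues with a median of 0.35 over transcripts, and 0.06 without fish A20. The tank of each fish is not given in the sources used here. The p-values of the rhythm, peak time and curve tests therefore measure the spread between these fish. Those of the correlations come from re-pairing the time point means and do not measure that spread.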

Additional observations from a re-analysis of the deposited data

Results flagged for a closer look

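The 24 h curve differed between OT and gill, by permuted tissue labels with Benjamini-Hochberg adjustment, for 9 transcripts. The adjusted permutation p was 0.000195 for Ciart-Ch14 and Per1-Ch11, 0.00026 for Nr1d2-Ch27, 0.00039 for Per1-Ch4, 0.00565 for Cry2-Ch10 and Dbp-Ch5-1, 0.00864 for Per3-Ch22, 0.0098 for CKId-Ch28 and 0.0318 for Dbp-Ch14. For Per3-Ch22 the OT signal had a range of 2.04-fold over time point means, from ZT13 to CT1, and the gill signal of 1.25-fold. For Dbp-Ch14 the OT signal ranged 1.80-fold, from CT5 to ZT17, and the gill signal 1.29-fold.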

How the results depend on the processing

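No correlation of time point means passed adjustment with another pseudocount, after scaling, without the closing CT5, or without a replicate or fish A20. Correlations were not computed under a change of log or filter, nor on the LD-labelled samples alone. No difference of peak time passed adjustment under any change of pseudocount, log, filter, scaling or time points, nor without a replicate or fish A20. Permutation of the absolute peak time difference is the exception. It called 5 transcripts with tissue labels permuted within time points and 7 with the replicate block, in which labels were permuted within fish. Those 5 were Ciart-Ch14, Dbp-Ch14, Dbp-Ch5-1, Nr1d2-Ch27 and Per1-Ch11, the block added Cry2-Ch26 and Rora-Ch16, and this permutation exchanges whole curves, amplitudes included. The replicate block gave 14 differing curves against 9 without it. Scaling gave 16, and leaving out 1 fish per time point gave 5 to 9. In the gill, rhythm calls numbered 3 by a cosine fit with permuted time labels, 0 by JTK_CYCLE adjusted over transcripts, and 0 to 1 with 1 fish per time point left out, against 5. In the OT these omissions left 11 to 14 of 18. The median correlation rose from -0.04 to 0.46 with scaling. Directions of single peak time differences were read by the short way round the clock, where the interval on the values as deposited did not cover the whole day. On that rule Arntl1-Ch10 changed from -0.62 h to 1.13 h with scaling and ranged from -0.938 to 0.0121 h with 1 fish per time point left out, and Nr1d2-Ch2 changed from 5.18 h to -0.88 h with scaling, where its interval covered the whole day. With replicate 1 left out CKId-Ch28 went from -10.8 to 11.3 h and Cry2-Ch10 from -10.5 to 11.8 h, which lie across the 12 h point, where earlier and later meet. The causes were not tested. Leaving out fish A20 was chosen after the data were seen. With 3 fish per time point, the gill intervals for bounded peaks had a median width of 7.0 h, so shifts of a few hours were not detectable for most transcripts.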

Other observations

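The diel series opens and closes at the same clock hour. Closing CT5 was lower than opening ZT5 in 31 of 39 transcripts in the OT (median difference -0.22 on the log2 scale, range -0.45 to 0.41). In the gill it was lower in 25 of 39 (median -0.07, range -0.56 to 0.91). All 39 come from the same 3 fish per time point, so these counts are not of independent members. Relative to the tissue mean, the mean of all 39 in the OT stood at -0.01 at ZT5 and -0.19 at CT5. In the gill it stood at 0.05 and 0.02. The part of this shared level in the counts was not tested. Per1-Ch6, another Per1 copy, with values in the gill only, had a signal of 27.7 to 74.0 there (median 52.6) and was not called rhythmic by JTK_CYCLE (n = 21, adjusted p = 1). CKId-Ch1, with values in the OT only, had a signal of 303 to 502 (n = 21, median 379, JTK_CYCLE adjusted p = 0.268).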
